A study of Mus musculus with 6 samples.

Results

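The genes described here are the 37 carried by mouse mitochondrial DNA, chosen as the rows whose identifier has a symbol starting with mt-, out of 55401 rows in the gene table. They comprise 13 mRNAs, 2 rRNAs and 22 tRNAs, and all 37 passed the filter on low counts. RNA was measured in F4/80+ cells, F4/80 being the surface marker used to isolate macrophages, from mouse liver tumours harvested on day 14 after Hepa 1-6 hepatoma cells were placed in the liver. The 3 control libraries, labelled WT Control, came from tumours of control cells, and the 3 Sms_OE libraries, labelled Sms-OE, from tumours of cells given an Sms-overexpressing lentivirus. Sms is the gene of spermine synthase. In the series' design text the lentivirus was used on the injected cells, and the macrophages came from the resulting tumours. Age, sex and strain of the mice, the vector of the controls, and whether each library came from its own animal were not stated in the labels used here, and the p-values therefore cover only the spread among these libraries, which may be technical. Libraries held 49833764 to 58154006 estimated counts, and RNA was selected on oligo(dT) beads. Sms_OE replicates 2 and 3 stood apart by high haemoglobin RNA, and results without them are given with the marker genes. Of the 10 macrophage markers fixed, all had counts in these libraries.

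Mitochondrial DNA is a small circle transcribed from both strands as long precursors. In most places tRNAs sit between the mRNAs and rRNAs, and cutting them out releases the mature RNAs. The mRNAs encode core subunits of respiratory complexes I, III, IV and V, and the rRNAs and tRNAs serve the mitochondrial ribosome that translates them. All other respiratory subunits, and the proteins that copy, transcribe and process mitochondrial DNA and RNA, are encoded in the nucleus. Most mitochondrial mRNAs carry short poly(A) tails, which in some of them complete the stop codon.

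The 3' ends of the annotated mRNAs are shown because RNA was captured by its A-rich stretches and because the reading frames differ in how they end. Sequences are from GENCODE M21 transcripts (GRCm38), 5′ to 3′ on the coding strand, with the annotated stop letters in capitals. Of 13 reading frames 10 end in a full stop codon and 3, those of mt-Co3, mt-Nd4 and mt-Cytb, in a lone T. The examples are mt-Co1 at chrM:6849-6872, mt-Cytb at chrM:15265-15288, mt-Nd4 at chrM:11521-11544, mt-Co3 at chrM:9367-9390 and mt-Nd6 at chrM:13552-13575 on the minus strand.
mt-Co1: ccaacctatgtaaaagtaaaaTAA
mt-Cytb: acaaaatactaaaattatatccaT
mt-Nd4: aactaattacaggcctgacaataT
mt-Co3: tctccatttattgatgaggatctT
mt-Nd6: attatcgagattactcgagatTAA

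The mitochondrial mRNAs were lower in Sms_OE, while the rRNAs did not pass the test. All 13 mRNAs passed an adjusted p under 0.05 in edgeR's quasi-likelihood test, with falls of 1.86-fold to 3.43-fold. Of the 22 tRNAs 15 were lower and 7 did not pass, and no member was higher. Over all genes tested 14.3% were called lower and 12.5% higher. Every Sms_OE library lay below every control library for 33 of the 37 members, against 23.3% of all genes tested. The median log2 fold change (Sms_OE minus control) was -1.46 over the mRNAs, -1.03 over the tRNAs and -1.30 over all members. In bulk samples, fewer cells of a type and less RNA per cell cannot be told apart.

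**Figure D1:**
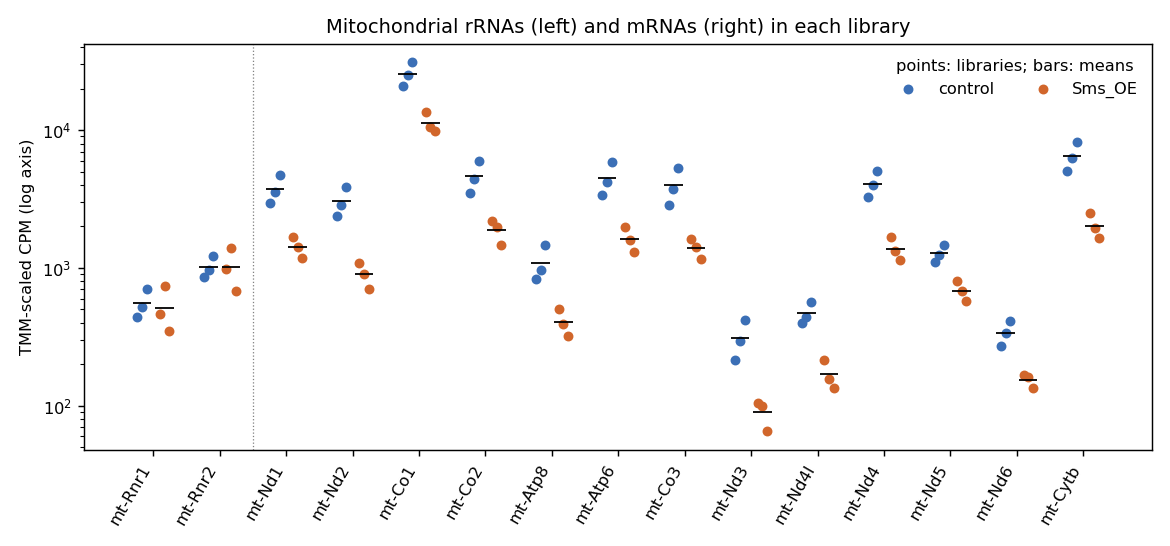
CPM (counts per 1000000, libraries scaled by edgeR's TMM method, log axis) of the 2 rRNAs and 13 mRNAs in each of the 6 libraries, blue for control and orange for Sms_OE, with bars at the means. The groups are separate for every mRNA, for example 5063 to 8263 against 1644 to 2509 CPM for mt-Cytb, and overlap for both rRNAs.

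As a share of all counts, mitochondrial mRNAs took 4.84%, 5.62% and 6.93% in control replicates 1 to 3 and 2.96%, 2.21% and 2.04% in Sms_OE replicates 1 to 3. The groups did not overlap, and the means were 5.80 ± 1.1% and 2.40 ± 0.49% (SD, n = 3 each), a ratio of 2.41. The rRNAs took 0.134%, 0.146% and 0.180% in the controls and 0.152%, 0.209% and 0.107% in Sms_OE. Here Sms_OE replicates 2 and 3 were the highest and the lowest of all 6 libraries, with the controls between them. The two-sided exact permutation test gave p = 0.1 for the mRNA share (0.15 adjusted over the 6 such measures tested) and p = 0.9 for the rRNA share (adjusted 0.9), where 0.1 is the smallest p that 3 against 3 libraries allow.

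Relative to mitochondrial mRNA, rRNA was higher in each Sms_OE library than in any control. For each 100 mRNA counts there were 2.77, 2.60 and 2.59 rRNA counts in the controls and 5.14, 9.45 and 5.24 in Sms_OE. The controls lay close together, and Sms_OE replicate 2 stood above the other two. The log2 ratio differed by 1.26, from -5.24 ± 0.054 to -3.98 ± 0.50 (SD, n = 3, exact permutation p = 0.1, adjusted 0.15), and by 0.97 without Sms_OE replicate 2. This ratio is taken within each library and does not depend on the scaling between libraries. The tRNA to mRNA ratio overlapped between the groups, at 0.265, 0.305 and 0.241 tRNA counts per 100 mRNA counts in the controls and 0.270, 0.326 and 0.290 in Sms_OE (log2 difference 0.13, exact permutation p = 0.4, adjusted 0.48).

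**Figure D2:**
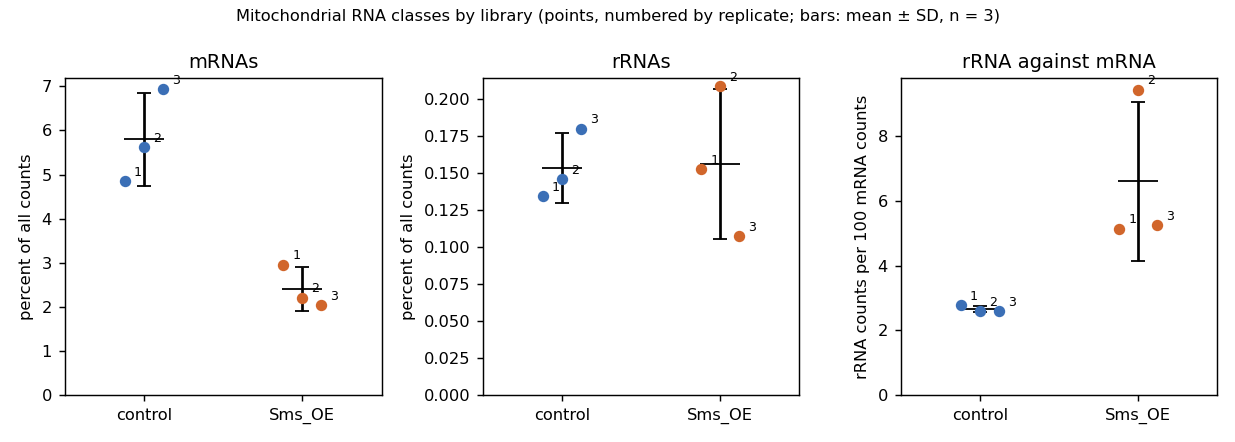
Share of all counts held by mitochondrial mRNAs (left) and rRNAs (middle), and rRNA counts per 100 mRNA counts (right), per library, numbered by replicate, with mean ± SD (n = 3). The mRNA share is 4.84% to 6.93% in controls and 2.04% to 2.96% in Sms_OE, the rRNA shares overlap, and the ratio is above 5 in every Sms_OE library and below 3 in every control.

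The 2 rRNAs form the small and the large subunit of the mitochondrial ribosome and are read from the start of the heavy-strand precursor. mt-Rnr1, the 12S rRNA (chrM:70-1024), stood at 439, 520 and 704 CPM in the controls and 461, 737 and 350 CPM in Sms_OE. mt-Rnr2, the 16S rRNA (chrM:1094-2675), stood at 861, 974 and 1227 CPM and at 983, 1402 and 680 CPM. In both, Sms_OE replicate 2 was highest and Sms_OE replicate 3 lowest, and mt-Rnr2 counts per 100 mt-Rnr1 counts varied only between 174 and 213. edgeR gave log2 fold changes of -0.10 ± 0.28 and 0.0013 ± 0.25 (SE; adjusted p = 0.826 and 0.997). Mitochondrial rRNA is known to carry at most a very short tail, and its capture on oligo(dT) beads relative to the mRNAs was not tested. Whether runs of A within the genes bind such beads was not tested either. The longest runs of the rRNAs are shown in capitals, at chrM:690-724 and chrM:1473-1509. The longest run of the mRNAs, in mt-Nd2 at chrM:4037-4074, is given for comparison.
mt-Rnr1: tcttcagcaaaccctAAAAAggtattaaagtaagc
mt-Rnr2: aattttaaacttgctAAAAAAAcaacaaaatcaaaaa
mt-Nd2: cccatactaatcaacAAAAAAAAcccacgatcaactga

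The runs were 5 bases in mt-Rnr1, 7 in mt-Rnr2 and 8 in mt-Nd2.

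Complex I takes electrons from NADH, and its 7 mitochondrial subunits, all parts of the proton-pumping membrane arm, fell by log2 fold changes between -1.78 and -0.90. mt-Nd2 (chrM:3914-4951) stood at 2387, 2887 and 3873 CPM in the controls and 1088, 900 and 705 CPM in Sms_OE. Its log2 fold change was -1.76 ± 0.20 (SE, adjusted p = 0.000508, edgeR). mt-Nd3 (chrM:9459-9806) fell as far, from 216, 293 and 416 CPM to 105, 99.4 and 65.3 CPM (log2 -1.78 ± 0.27, adjusted p = 0.00322). For both genes the highest Sms_OE library was replicate 1 and the highest control replicate 3. mt-Nd1 (chrM:2751-3707), next to the rRNAs in the precursor, fell from 2945, 3550 and 4709 CPM to 1685, 1408 and 1181 CPM (log2 -1.39 ± 0.18, adjusted p = 0.000881). Its groups did not overlap, unlike those of mt-Rnr2, from which the tRNA gene mt-Tl1 separates it.

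mt-Nd4l and mt-Nd4 are translated from a shared bicistronic mRNA, and their frames overlap by 7 bases at chrM:10167-10173. mt-Nd4 fell 2.96-fold, from 3281, 3968 and 5042 CPM to 1669, 1335 and 1144 CPM (adjusted p = 0.000503). mt-Nd4l fell 2.78-fold, from 401, 438 and 568 CPM to 215, 158 and 134 CPM (adjusted p = 0.00079). The pair kept a similar ratio in every library, 11.04 to 12.9 mt-Nd4l counts per 100 mt-Nd4 counts, and the groups overlapped.

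mt-Nd5 had the smallest fall of the mRNAs. Its counts were 1112, 1251 and 1467 CPM in the controls and 798, 681 and 577 CPM in Sms_OE (log2 -0.90 ± 0.14, adjusted p = 0.00203). mt-Nd6, the one mRNA transcribed from the other strand, was next to smallest, with 270, 335 and 411 CPM against 167, 161 and 134 CPM (log2 -1.14 ± 0.15, adjusted p = 0.00082). The groups did not overlap for either gene. These reading frames run toward each other and their ends overlap at chrM:13552-13565, shown because a count without strand could not assign these bases (plus strand).
mt-Nd5 and mt-Nd6: TTAATCTCGAGTAA

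mt-Nd6 counts per 100 of the other 12 mRNAs were 0.578, 0.586 and 0.556 in the controls and 0.598, 0.716 and 0.687 in Sms_OE. The difference of 0.21 in the log2 ratio gave p = 0.1 (exact permutation, adjusted 0.15), and it was 0.060 when Sms_OE replicate 1 was the sole Sms_OE library used. Against mt-Nd5 the direction was opposite, with 24.3, 26.8 and 28.1 mt-Nd6 counts per 100 mt-Nd5 counts in the controls and 20.9, 23.6 and 23.3 in Sms_OE. The kit marks strand, but the strand setting used for counting is not given in the sources used here.

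Complex III passes electrons from ubiquinol to cytochrome c, and cytochrome b, encoded by mt-Cytb (chrM:14145-15288), is its only mitochondrial subunit. mt-Cytb stood at 5063, 6238 and 8263 CPM in the controls and 2509, 1935 and 1644 CPM in Sms_OE. The lowest control was above the highest Sms_OE library, with a 3.21-fold fall (log2 -1.68 ± 0.20, adjusted p = 0.000563, edgeR).

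Complex IV, cytochrome c oxidase, hands electrons to oxygen, and its 3 mitochondrial subunits form the catalytic core. mt-Co1 (chrM:5328-6872), which binds the haem and copper centres, was the most abundant member in every library, with 20752, 25289 and 31025 CPM in the controls and 13567, 10568 and 9791 CPM in Sms_OE. It fell 2.27-fold (log2 -1.18 ± 0.18, adjusted p = 0.00156). mt-Co2 (chrM:7013-7696), which receives electrons from cytochrome c, fell from 3491, 4412 and 5979 CPM to 2179, 1992 and 1479 CPM (log2 -1.30 ± 0.20, adjusted p = 0.00204). mt-Co3 (chrM:8607-9390) fell most of the 3, from 2858, 3755 and 5334 CPM to 1612, 1431 and 1157 CPM (log2 -1.51 ± 0.22, adjusted p = 0.0014). None of the 3 had overlapping groups.

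Complex V, ATP synthase, has 2 mitochondrial subunits in its membrane part, encoded in overlapping frames of a shared mRNA. The overlap at chrM:7927-7969 is shown in capitals, within chrM:7915-7981, since its bases belong to both genes and reads there can be counted to either.
mt-Atp8 to mt-Atp6: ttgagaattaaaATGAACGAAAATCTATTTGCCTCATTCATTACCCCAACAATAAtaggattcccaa

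mt-Atp6 stood at 3384, 4189 and 5864 CPM in the controls and 1975, 1584 and 1314 CPM in Sms_OE, a 2.76-fold fall (log2 -1.46 ± 0.21, adjusted p = 0.00137). mt-Atp8 stood at 828, 969 and 1472 CPM and at 501, 389 and 323 CPM, a 2.69-fold fall (log2 -1.43 ± 0.23, adjusted p = 0.00325). The ratio of the pair was 23.1 to 25.4 mt-Atp8 counts per 100 mt-Atp6 counts over the 6 libraries, and the groups overlapped.

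The mRNAs did not all fall in step, so the makeup of the mRNA pool shifted. mt-Co1 took 44.2%, 43.9% and 41.7% of mitochondrial mRNA counts in the controls and 48.3%, 46.7% and 49.8% in Sms_OE. mt-Cytb took 10.8%, 10.8% and 11.1% and then 8.94%, 8.55% and 8.37%. mt-Nd2 went from 5.10 ± 0.096% to 3.81 ± 0.20%, mt-Nd4 from 6.88 ± 0.10% to 5.89 ± 0.063% and mt-Nd5 from 2.17 ± 0.20% to 2.93 ± 0.083% (SD, n = 3). None of these 5 had overlapping groups, whereas the shares of mt-Nd1, mt-Co2, mt-Co3, mt-Atp8 and mt-Nd4l overlapped. By complex, the share of complex IV mRNAs was 57.6 ± 0.62% in the controls and 62.3 ± 0.83% in Sms_OE, and that of complex I 22.3 ± 0.27% and 20.5 ± 0.45%. Shares must sum to the whole, so a rise of mt-Co1 lowers the others, and these shares were not tested.

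Per length, as CPM per kilobase of the annotated gene, mt-Co1 was highest in the controls at 16627 ± 3332, followed by mt-Co2 at 6765 ± 1839, mt-Atp6 at 6578 ± 1858, mt-Cytb at 5701 ± 1415, mt-Atp8 at 5340 ± 1660 and mt-Co3 at 5080 ± 1599 (SD, n = 3). The libraries moved together here: mt-Co2, mt-Atp6 and mt-Cytb kept this order in each control, and mt-Atp8 and mt-Co3 changed places in control replicate 2. The SDs are spreads between libraries that these genes share, and differences between genes were not tested. mt-Nd5 and mt-Nd6, at 700 ± 98 and 653 ± 136, were lowest of the mRNAs and near the rRNAs mt-Rnr2 and mt-Rnr1, at 645 ± 118 and 581 ± 142. In Sms_OE the order differed: mt-Rnr2 and mt-Rnr1, at 646 ± 229 and 540 ± 208, were above mt-Nd5 at 376 ± 60.7, mt-Nd6 at 297 ± 33.5 and mt-Nd3 at 258 ± 61.6 by their means. Such levels also depend on capture and on how shared reads were counted.

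Of 13 mRNAs 9 have a near-identical copy among nuclear transcripts (at least 95% identity over at least 80% of the copy), 11 copies in all. For mt-Co2 the copy Gm28661 held 205604 counts in control replicate 1 against 209234 for the mitochondrial gene, and for mt-Atp6 the copy Gm10925 held 210844 against 202830. The copies of mt-Co3, mt-Nd3 and mt-Nd4l likewise held nearly the same counts as the genes themselves, so the level of these members, and any order of levels that uses them, is uncertain. With the copies added to the genes the mitochondrial share was 7.71 ± 1.5% in the controls and 3.26 ± 0.64% in Sms_OE, and 28 members were again called lower. The 4 mRNAs with no such copy among annotated transcripts, mt-Nd1, mt-Atp8, mt-Nd6 and mt-Cytb, had a median log2 fold change of -1.41, and the 9 with one -1.47. Copies outside annotated transcripts were not searched for. mt-Atp8 lies between mt-Co2 and mt-Atp6, whose copies are neighbours on chromosome 1 (24614885-24615565 and 24613974-24614651). It also shares 43 bases with mt-Atp6, so its level may be uncertain too.

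The tRNAs were sparse. Mature tRNAs are short, folded and without a poly(A) tail, and the table does not separate their counts from those of longer RNAs that span their genes. Of 22 tRNA genes, 2 reached a mean of 10 CPM over the 6 libraries. mt-Ts1 (chrM:6870-6938), a serine tRNA on the other strand just past mt-Co1, whose last 3 bases it overlaps, stood at 57.3, 75.8 and 100 CPM in the controls and 37.9, 34.4 and 28.6 CPM in Sms_OE (log2 -1.21 ± 0.19, adjusted p = 0.00236). Its counts per 100 mt-Co1 counts overlapped between the groups, 0.276 to 0.324 and 0.280 to 0.325. mt-Tl1 (chrM:2676-2750), a leucine tRNA between mt-Rnr2 and mt-Nd1, stood at 13.8, 15.2 and 18.1 CPM and at 11.7, 9.93 and 7.98 CPM (log2 -0.67 ± 0.17, adjusted p = 0.0165), and its fold lay between those of its neighbours. Leaving out replicate 3 of the controls or of Sms_OE ended this call (adjusted p = 0.0656 and 0.0591), as did offsets for length and GC (adjusted p = 0.0648), the hepatocyte marker covariate, and leaving out both haemoglobin-rich libraries (adjusted p = 0.242).

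The largest folds of all members belonged to 2 adjacent tRNA genes, mt-Ti for isoleucine and mt-Tq for glutamine, which with mt-Tm for methionine fill the space between mt-Nd1 and mt-Nd2. These 3 are described after their values were seen. Their genes are shown with the anticodon in capitals, at chrM:3706-3774, chrM:3772-3842 (minus strand) and chrM:3845-3913.
mt-Ti: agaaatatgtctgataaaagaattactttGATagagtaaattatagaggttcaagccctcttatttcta
mt-Tq: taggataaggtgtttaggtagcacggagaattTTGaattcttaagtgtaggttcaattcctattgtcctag
mt-Tm: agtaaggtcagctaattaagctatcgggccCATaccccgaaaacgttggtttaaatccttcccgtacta

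mt-Ti had 261, 568 and 102 counts in the controls and 33, 48 and 49 in Sms_OE, and mt-Tq 250, 563 and 100 and 30, 43 and 43. The counts of these 2 genes, on opposite strands, were close to each other in every library. mt-Tm had 250, 499 and 156 counts and 75, 95 and 70. Control replicate 2 was the highest library for each, and control replicate 3, highest for the mRNAs, was the lowest control. In the order given, edgeR's log2 fold changes were -2.71 ± 0.52, -2.85 ± 0.53 and -1.81 ± 0.37 (SE; adjusted p = 0.00555, 0.00471 and 0.00672). Without control replicate 2, mt-Tq gave -2.06 with an adjusted p of 0.0135. Per 100 mt-Nd1 counts, mt-Ti overlapped between the groups, with 0.148, 0.286 and 0.0451 in the controls and 0.0371, 0.0684 and 0.0801 in Sms_OE.

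Control replicate 2 was the highest library for 15 of the 22 tRNA genes and control replicate 3 for the other 7, in CPM. The number of tRNAs called lower was 7 without control replicate 2 and 7 without Sms_OE replicate 3, against 15 with all libraries. Of all genes tested, 8.78% and 9.22% were called lower in those fits, against 14.3% with all libraries. The remaining tRNAs had means of at most 12.5 CPM in the controls. The 8 light-strand tRNAs had 7 called lower and a median log2 fold change of -1.03, and the 14 heavy-strand tRNAs 8 and -1.14.

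**Figure D3:**
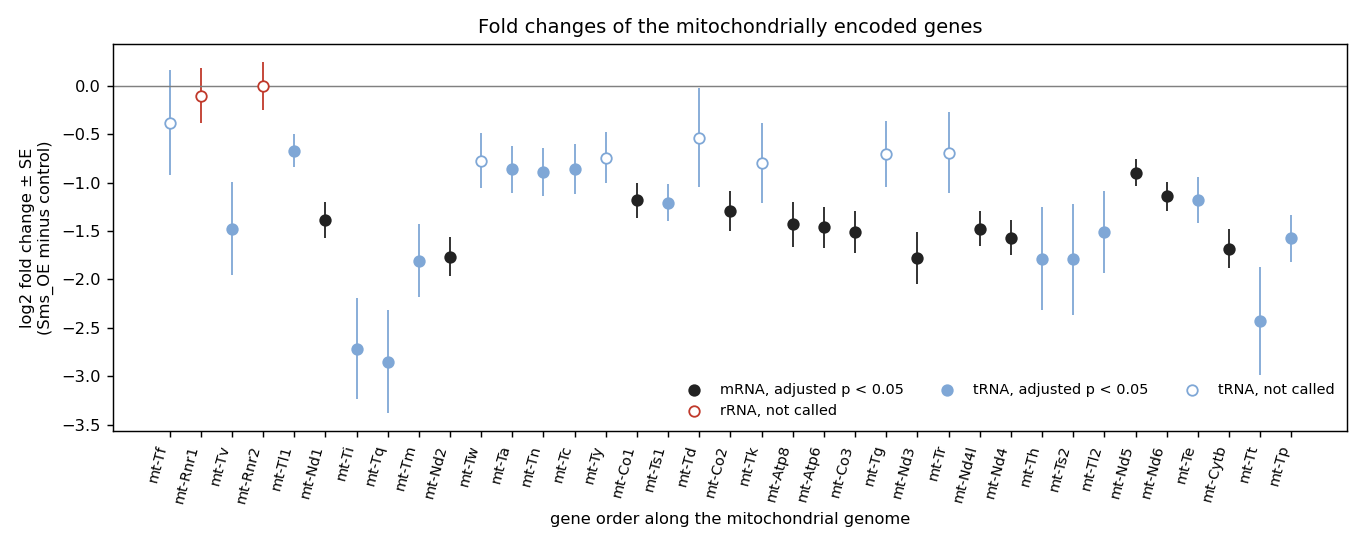
Log2 fold change (Sms_OE minus control, ± SE) of the 37 members in their order along the mitochondrial genome, black for mRNAs, red for rRNAs and blue for tRNAs, filled where the adjusted p is under 0.05. The 2 rRNAs lie at -0.10 and 0.0013, all 13 mRNAs between -1.78 and -0.90, and mt-Ti and mt-Tq lowest, at -2.71 and -2.85.

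Nuclear-encoded subunits of the same complexes were lower as well, by smaller log2 fold changes. For complex I 32 of 37 nuclear subunits fell and none rose (median -0.58), for complex III 9 of 9 (median -0.65), for complex IV 11 of 11 (median -0.65) and for complex V 17 of 17 (median -0.72). The complex V genes counted include Atpif1, which encodes an inhibitor of the enzyme and not a subunit. Complex II, which has no mitochondrial subunit, had 4 of 4 lower (median -0.72). These counts stand against 14.3% of all genes tested called lower. Ndufa9 and Cox5a, subunits of complexes I and IV, went from 73.7 ± 3.2 to 39.1 ± 2.5 CPM and from 110 ± 6.2 to 55.8 ± 6.5 CPM (adjusted p = 0.000224 and 0.000305). The others with the smallest p in these lists were Ndufv2 of complex I, Sdhc and Sdhd of complex II, Cyc1 and Uqcrfs1 of complex III, Ndufa4 of complex IV, and Atp5g3 and Atp5o of complex V, lower by 1.57-fold to 1.96-fold. The smallest fall of a mitochondrial mRNA, -0.90 for mt-Nd5, lay within the nuclear range of complex I, which ran from -1.08 to -0.28, and the 6 others of that complex lay below it. In complexes III, IV and V every mitochondrial mRNA had a lower log2 fold change than every nuclear subunit. The difference between the 2 genomes was not tested.

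**Figure D4:**
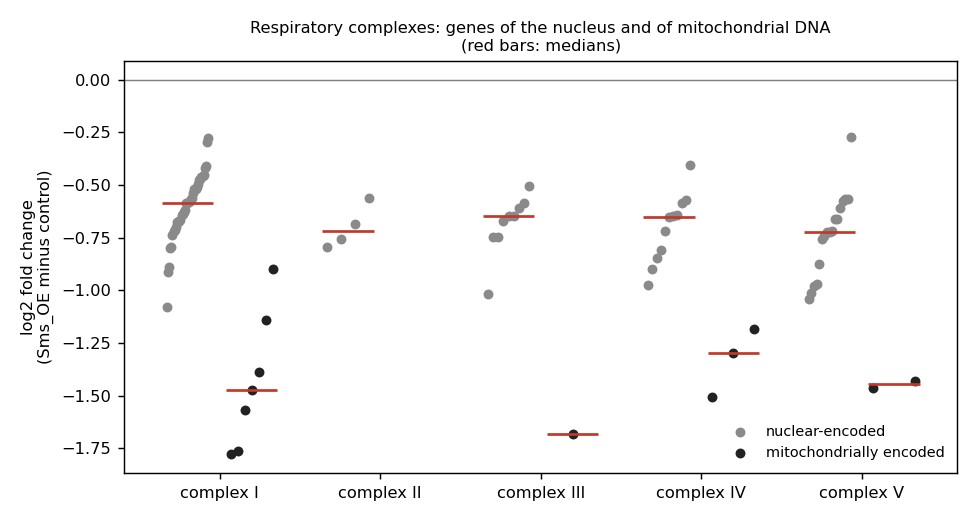
Log2 fold changes (Sms_OE minus control) of nuclear-encoded (grey) and mitochondrially encoded (black) subunits of respiratory complexes I to V, each point a gene and each red bar a median. The grey complex V points include the inhibitor gene Atpif1, which is not a subunit. The nuclear medians lie between -0.72 and -0.58 and the mitochondrial ones between -1.68 and -1.30.

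Genes that transcribe mitochondrial DNA were mixed. Of 11 measured, 5 fell, none rose and 6 did not pass, where 14.3% of all genes tested were called lower and 12.5% higher. Polrmt, the mitochondrial RNA polymerase, gave 9.33 ± 2.0 and 9.79 ± 1.7 CPM (log2 0.07 ± 0.20, adjusted p = 0.839), while Tfam, which packages mitochondrial DNA and opens its promoters, fell from 19.2 ± 1.0 to 13.7 ± 0.60 CPM (log2 -0.49 ± 0.12, adjusted p = 0.0117). Tefm, the elongation factor, fell 1.60-fold (adjusted p = 0.0408) and Mrpl12, a ribosomal protein also reported to bind the polymerase, 1.81-fold (adjusted p = 0.00117). The other two that fell, named after their values were seen, were Tfb1m, a methylase of 12S rRNA, 1.61-fold, and Mterf1b, 2.16-fold. Tfb2m, the initiation factor, gave -0.36 ± 0.16 (adjusted p = 0.124).

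Of 22 genes for processing and decay of mitochondrial RNA 7 fell, 1 rose and 14 did not pass. The shares over all genes tested were 14.3% lower and 12.5% higher. Lrpprc and Slirp form a complex that stabilises mitochondrial mRNAs. Lrpprc stood at 37.4, 35.4 and 32.6 CPM in the controls and 28.6, 18.6 and 20.8 CPM in Sms_OE (log2 -0.63 ± 0.15, adjusted p = 0.0136). Slirp stood at 14.5, 16.1 and 19.7 CPM and at 9.21, 5.82 and 7.57 CPM (log2 -1.15 ± 0.19, adjusted p = 0.00228). Neither gene had overlapping groups. Ptcd2 fell 1.73-fold and Pnpt1, a subunit of the RNA-degrading complex, 1.496-fold (adjusted p = 0.00136 and 0.0094). Its partner helicase Supv3l1 gave 0.10 ± 0.21, the poly(A) polymerase Mtpap -0.19 ± 0.13, the nuclease Elac2, which trims tRNA 3' ends, -0.40 ± 0.16, and Trmt10c, a subunit of mitochondrial RNase P, 0.11 ± 0.17, and these 4 did not pass (adjusted p between 0.0842 and 0.764). Another subunit of mitochondrial RNase P, Hsd17b10, named after its values were seen, did fall, 1.44-fold (adjusted p = 0.00845). The others that fell, also named after their values were seen, were Rexo2, 1.62-fold, and Tbrg4, 1.29-fold (adjusted p = 0.00459 and 0.0483). The 1 that rose, named after its values were seen, was Pde12, a nuclease that removes poly(A) tails from mitochondrial RNA, with a log2 fold change of 0.69 ± 0.14 (adjusted p = 0.00598).

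Among 16 genes listed for the maintenance of mitochondrial DNA, not all of which act on the DNA itself, 5 fell and 1 rose. The riser was Polg, the catalytic subunit of the mitochondrial DNA polymerase, from 58.2 ± 5.0 to 78.2 ± 4.9 CPM (log2 0.43 ± 0.095, adjusted p = 0.00907). The helicase Twnk gave -0.27 ± 0.22 (adjusted p = 0.403), and Suclg1 fell 1.68-fold (adjusted p = 0.0016). The other four that fell, named after their values were seen, were Suclg2, Sucla2, Rnaseh1 and Dguok, by 1.38-fold to 1.59-fold. Of 78 genes with symbols of mitochondrial ribosomal proteins (starting with Mrpl or Mrps) 62 fell and none rose (median -0.58), with Mrps36 1.97-fold lower. This list was drawn by symbol, and a place in the ribosome was not checked for each gene. Of 13 translation factors 6 fell, among them Gfm1, an elongation factor, 1.63-fold, and Tufm, another, 1.497-fold. Of 22 genes for charging mitochondrial tRNAs 5 fell, with Ears2 2.18-fold lower and Kars, which also serves the cytosol, 1.47-fold lower, beside Gars, Gatb and Rars2, named after their values were seen, and none rose in either group. These lists stand against 14.3% of all genes tested called lower and 12.5% higher.

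Of 38 assembly factors 17 fell and none rose, with Ndufaf4 1.91-fold and Coa5 1.42-fold lower. Of 22 genes for general membrane and matrix proteins 20 fell, with the chaperonin Hspe1 2.12-fold and prohibitin Phb 1.71-fold lower, and citrate synthase, Cs, fell from 210 ± 12 to 160 ± 5.7 CPM (log2 -0.39 ± 0.085, adjusted p = 0.00847). Over all genes tested 14.3% were called lower and 12.5% higher. Among 7 tested regulators of mitochondrial biogenesis 1 fell and 1 rose, which is near those shares. Ppargc1b, a coactivator of respiratory genes, fell from 11.7 ± 3.3 to 6.15 ± 0.51 CPM (log2 -0.93 ± 0.22, adjusted p = 0.0119). The nuclear receptor Ppard rose 1.41-fold (adjusted p = 0.00862). Among 8 tested mitophagy genes 2 fell, Fundc1 1.79-fold and Phb2 1.56-fold, and 2 rose, Bnip3l and Optn, named after their values were seen, each 1.32-fold.

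The libraries also differed in markers of other cells. Of the 15 markers of hepatocytes and hepatoma cells 11 were lower and none higher, where 14.3% of all genes tested were called lower. All 15 markers had counts in the controls, while Cps1 was at 0 in the 3 Sms_OE libraries and Fabp1 and Hpd in Sms_OE replicates 1 and 2. Their summed level was 845, 869 and 1087 CPM in the controls and 669, 585 and 439 CPM in Sms_OE, so that within each group the libraries had the same order as for mitochondrial mRNA. Albumin, Alb, had the highest mean over the 6 libraries, at 395 ± 61 (control) and 193 ± 45 CPM (Sms_OE). Transferrin, Trf, named after its values were seen, was above it in Sms_OE, with a log2 fold change of 0.05 (adjusted p = 0.823). Afp, a hepatoma marker of the list and also named after its values were seen, did not pass either. Its levels were 63.6 ± 7.3 (control) and 58.0 ± 10 CPM (Sms_OE), with overlapping groups (log2 -0.13, adjusted p = 0.517). All 15 markers together took 0.0848% to 0.101% of counts in the controls and 0.0456% to 0.0705% in Sms_OE. Mitochondrial mRNA took 4.84% to 6.93% and 2.04% to 2.96%. The markers are only part of the RNA of such cells, so their sum does not measure the share of RNA from those cells. With the mean log2 CPM of these markers as a covariate, edgeR called 0 of 18277 genes (619 at an unadjusted p under 0.05; no other tool was run with it), and all 13 mRNAs had fold changes of the opposite sign. That marker mean was 3.42 to 3.96 in the controls and 1.19 to 1.51 in Sms_OE, so in this fit the markers and the groups cannot be told apart.

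Erythroid markers summed to 43.2, 96.8 and 188 CPM in the controls, 216 CPM in Sms_OE replicate 1, and 5047 and 5011 CPM in replicates 2 and 3. Without those 2 replicates, a choice made after seeing the data, 6 of 13 mRNAs, 1 tRNA and no rRNA were called lower, against 3.41% of all genes tested in that fit, and the mRNA share was 2.96% in the library left. That fit assumes that the lone Sms_OE library varies like the controls. Its median mRNA log2 fold change was -1.15. Macrophage markers, among them Lyz2 at 2769 ± 83 and 2518 ± 483 CPM, summed to 6134 to 6257 CPM in the controls and 5842 to 6914 CPM in Sms_OE, with 3 of 10 lower and 1 higher. The defining markers were thus present in each library, among them Adgre1, which encodes F4/80, at 449 ± 105 and 570 ± 78 CPM. Neither Lyz2 nor Adgre1 passed (adjusted p = 0.507 and 0.16). The macrophage markers called, named after their values were seen, were C1qa, C1qb and Cd68, lower, and Cd14, higher. Their log2 fold changes were -0.455, -0.66, -0.35 and 0.735, in that order. Neutrophil markers summed to 3309, 4353 and 6128 CPM and to 3144, 4125 and 2239 CPM, and within each group the libraries had the same order as for the rRNAs. With all 6 libraries, 14.3% of genes tested were called lower and 12.5% higher. Of the endothelial markers 4 of 7 were lower and 1 higher, and of the dendritic 3 of 6 lower. Of the stellate and fibroblast markers 2 of 5 tested were higher and of the neutrophil 1 of 7. None of the T and NK, B cell or erythroid markers passed. The most abundant of each by the mean over the 6 libraries, Pecam1, Ccr7, Dcn, Retnlg, Gzma, Cd79b and Hbb-bs, had log2 fold changes of -0.01, -0.59, 0.91, -0.34, -0.15, 0.17 and 4.94. The part of these cells in the fall of mitochondrial mRNA was not tested beyond the values given.

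**Figure D5:**
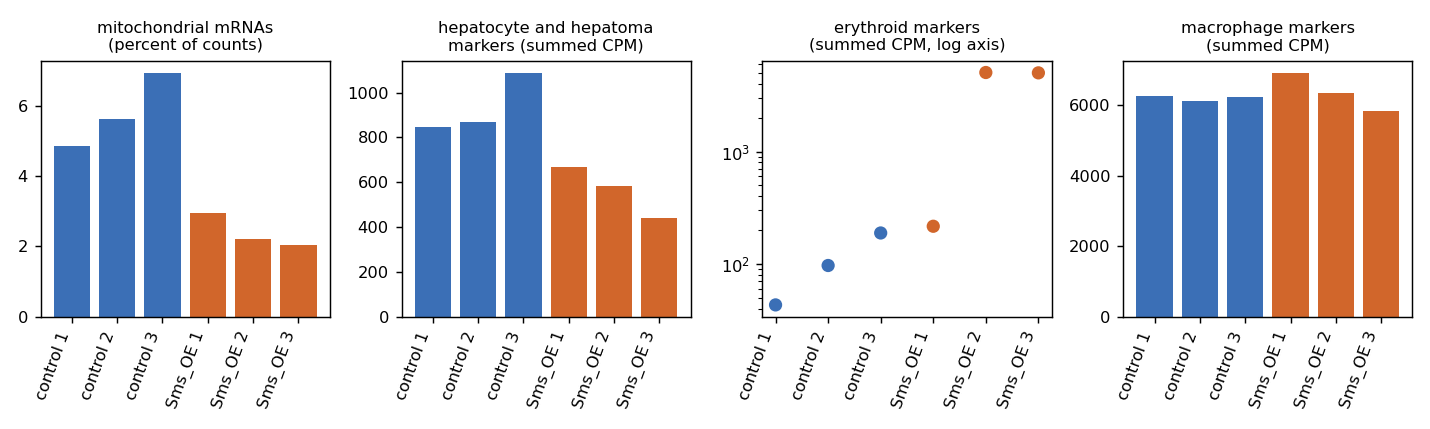
Per library, from left, mitochondrial mRNA as a percent of all counts and the summed CPM of hepatocyte and hepatoma, erythroid (log axis) and macrophage markers, blue for control and orange for Sms_OE. The hepatocyte markers are 845 to 1087 CPM in controls and 439 to 669 CPM in Sms_OE, and the erythroid markers reach 5047 and 5011 CPM in Sms_OE replicates 2 and 3, against at most 216 CPM in the other libraries.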

How the data were processed

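The authors deposited one table of estimated counts per gene, whole numbers, for 6 libraries, 3 per group. The submitters' processing notes list HISAT2 2.2.1, StringTie 2.1.6, DESeq2, cutadapt 1.9 and FastQC 0.11.9, with no role or order given. The genome build, the annotation, the handling of reads that map to several places and the strand setting of the counts were not given in these sources, and per the labels' protocols the kit marks strand with dUTP. Of 55401 rows 55141 carry a symbol, and 18277 passed edgeR's filter by expression. Counts were scaled by TMM and tested with edgeR 4.0.16 (robust quasi-likelihood fit on the 2 groups, Benjamini-Hochberg over all genes tested, threshold 0.05). CPM are TMM-scaled, and each SE was computed from edgeR's F and the log2 fold change. Measures per library were tested by enumerating all 20 assignments (two-sided exact permutation). Mitochondrial members were counted from the symbols. Positions and sequences came from GENCODE M21 (GRCm38) transcripts, and nuclear copies were found with BLAST 2.17.0. The analysis was run in R 4.3.3 with limma 3.58.1 and DESeq2 1.42.0 as alternatives, and checked on simulated data. There the fit recovered 28% of 50 genes changed by a log2 of 0.5, 74% at 1, 82% at 1.5 and 94% at 2. Of the simulated calls, 7.33% fell on unchanged genes. Genes that did not pass may therefore hold small changes. No 2 libraries were copies of each other, since all 6 totals differed. Within a group, 15.4% to 17.3% of rows with a count were identical between 2 libraries. Named in full were the mRNAs, rRNAs and tRNAs with a mean of at least 10 CPM. Of each nuclear list up to 2 genes with the smallest p were named, with 15 genes chosen by function and the most abundant marker of each cell type. The members, lists and rule were chosen with earlier results of these data known. Alternatives covered scaling, filters, tools, offsets for length and GC, a marker covariate, nuclear copies, haemoglobin rows and leaving out each library.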

Additional observations from a re-analysis of the deposited data

How the results depend on the processing

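All 13 mRNAs were called lower, and neither rRNA was called, under 19 alternatives: the scalings, filters, tools, offsets, copies, haemoglobin and block settings and the 6 fits that leave out 1 library. Over the 6 fits the number of members called lower was 20 to 27 and of tRNAs 7 to 14. It was 7 tRNAs without control replicate 2 and 7 without Sms_OE replicate 3. The share of all genes tested called lower was 8.78% to 13% in those 6 fits, against 14.3% in the main fit. With length and GC offsets the mRNA median was -0.98 and 23 members were called, where 9.64% of all genes tested were called lower. The scalings moved the median of all genes by at most 0.0628, with library size alone. Deviations from the group mean correlated at 0.31, 0.083 and -0.098 between same-numbered libraries, and at -0.348 to 0.298 between differently numbered ones. With 3 libraries per group these values cannot show whether the numbers pair the libraries. The main fit took no pairing. With the replicate block 27 members, 13 mRNAs and 14 tRNAs were lower, and mt-Tc was lost (edgeR, adjusted p = 0.0581). In that fit 13.2% of all genes tested were called lower. The sign of the rRNA values, none of them called, was not fixed. mt-Rnr2 gave -0.0104 with TMM computed without mitochondrial rows, -0.0187 with no filter, -0.0812 with limma-voom, -0.0407 with the replicate block and -0.0613 without the 2 haemoglobin-rich libraries, and -0.31 to 0.22 (with -0.114 and -0.0453 without control replicates 1 and 2) on leaving out 1 library. mt-Rnr1 gave 0.32 with length and GC offsets and -0.46 to 0.11 on leaving out 1 library (0.092 without control replicate 3). The group difference of the rRNA percent of counts ran from -0.0236 to 0.0272 on leaving out 1 library (-0.0068 and -0.001 without control replicates 1 and 2) and was -0.001 without the 2 haemoglobin-rich libraries. Without those libraries 7 members, 6 mRNAs and 1 tRNA were lower. With the hepatocyte marker covariate edgeR called 0 members, 0 mRNAs and 0 tRNAs, and 0 of all genes with 619 at an unadjusted p under 0.05. The values of opposite sign there were 1.68 for mt-Nd1, 1.53 for mt-Nd2, 2.203 for mt-Nd3, 1.43 for mt-Nd4l, 1.41 for mt-Nd4, 1.20 for mt-Nd5, 1.25 for mt-Nd6, 1.71 for mt-Cytb, 1.60 for mt-Co1, 2.03 for mt-Co2, 2.16 for mt-Co3, 2.13 for mt-Atp6, 2.40 for mt-Atp8 and 1.95 for mt-Rnr1. Of the tRNAs they were 0.88 for mt-Tf, 1.49 for mt-Tl1, 0.62 for mt-Ta, 0.89 for mt-Tn, 0.77 for mt-Tc, 0.31 for mt-Ty, 2.03 for mt-Ts1, 0.0829 for mt-Tg, 0.63 for mt-Tr, 1.66 for mt-Te and 1.44 for mt-Tp. The causes of these changes were not tested. At 9 to 126 counts per library for mt-Tv, mt-Th and mt-Ts2, counting error limits what the sparse tRNAs can show.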
